A study of Mus musculus with 10 samples.

Results

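Olfactomedin-like genes were examined in whole testis of mice at postnatal day 10. The group consisted of 5 genes, Olfml3, Olfml1, Olfml2a, Olfml2b and Olfm1, taken by their gene names from the 30719 genes of the deposited count table. FXR-/- mice (5 animals), which lack the farnesoid X receptor FXRα, a bile acid receptor encoded by Nr1h4, were compared with WT mice (5 animals). The strain label gave 50% 129sv and 50% C57Bl, with a number after C57Bl that differs from sample to sample and is not explained. Each library came from 1 individual mouse, and all libraries were run on 1 flowcell. Neither the deleted stretch of Nr1h4 nor any sharing of litters is stated in the labels. The genes were chosen by the measured difference in Olfml3 CPM between these FXR-/- and WT libraries, together with its relatives by name, so the genotype differences of the 5 genes are a description and carry no test here.

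Olfactomedin-domain proteins are mostly secreted glycoproteins that share a carboxy-terminal propeller-shaped domain and act outside the cell, in the matrix or at receptors. Olfml3 is a secreted matrix protein. In frog embryos its orthologue brings the BMP antagonist chordin together with the proteases that cut it, and in mice Olfml3 is made by pericytes and microglia and binds BMP4. Olfml2a and Olfml2b, the photomedins, bind glycosaminoglycan chains. Olfm1 (noelin) is known from the nervous system, where it associates with AMPA-type glutamate receptors, and Olfml1 is a secreted glycoprotein that is less well studied.

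The libraries held 33037427 to 39655170 counts in FXR-/- mice and 32330029 to 35006180 counts in WT mice. Levels are given as CPM, counts per 1000000 after scaling of the libraries with edgeR's trimmed-mean (TMM) factors. Nr1h4 itself gave 8, 9, 11, 11 and 13 counts in FXR-/- libraries 8, 9, 10, 11 and 12, against 15, 15, 13, 14 and 26 counts in WT libraries 3, 4, 5, 6 and 9. It was lower in FXR-/- libraries (log2 fold change -0.84, SE 0.237, edgeR adjusted p = 0.0347), but reads from outside the deleted stretch would still be counted, so this checks the labels only in part.

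The 250 bases before the start sites of Olfml3, Olfml2a and Olfml2b, the members whose levels differed most between the genotypes, are shown to place the later results beside the sequence. They were taken from RefSeq on GRCm38.p6, in which all 5 members were found, with 6 windows because Olfm1 has 2 start sites. Each runs 5′ to 3′ along the gene, and capitals mark matches to the motifs searched on both strands. The Olfml3 window lies at chr3:103738002-103738251 on the minus strand, that of Olfml2a at chr2:38931730-38931979 and that of Olfml2b at chr1:170644282-170644531, both on the plus strand.
Olfml3: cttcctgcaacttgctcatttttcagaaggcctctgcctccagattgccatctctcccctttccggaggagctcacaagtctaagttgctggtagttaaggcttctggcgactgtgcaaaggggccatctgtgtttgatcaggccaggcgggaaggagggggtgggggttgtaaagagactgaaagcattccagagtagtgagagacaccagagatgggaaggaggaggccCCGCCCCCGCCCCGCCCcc
Olfml2a: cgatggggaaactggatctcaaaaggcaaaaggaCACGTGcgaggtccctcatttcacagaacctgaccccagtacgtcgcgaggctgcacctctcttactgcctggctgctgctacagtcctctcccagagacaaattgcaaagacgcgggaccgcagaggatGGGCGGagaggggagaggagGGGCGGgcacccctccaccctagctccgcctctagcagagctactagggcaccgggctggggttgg
Olfml2b: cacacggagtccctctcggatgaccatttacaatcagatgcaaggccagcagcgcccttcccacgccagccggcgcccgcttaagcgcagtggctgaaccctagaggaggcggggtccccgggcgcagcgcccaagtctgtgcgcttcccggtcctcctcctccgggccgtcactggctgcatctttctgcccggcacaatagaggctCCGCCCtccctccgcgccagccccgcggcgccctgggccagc
The motifs were the hexamer AGGTCA bound by nuclear receptors, the inverted pair AGGTCANTGACCT that contains it, the GC box GGGCGG, the TATA box TATAAA, the E-box CACGTG, the SOX core AACAAT and the GATA core AGATAA. GC boxes were found in 5 of the 6 windows and in 4 of the 5 members, against 32.7% of 32851 windows of the same length. The windows with a GC box were also rich in G and C, at 57.6% for Olfml3, 61.6% for Olfml2a, 69.6% for Olfml2b and 69.2% for both of Olfm1. The Olfml1 window had 50.0%, and the median over all windows was 52.4%. Olfml3 had 3 of them, which begin 19, 13 and 8 bases before the start site, and the last pair share a base. Olfml1 had no match to any of the motifs, and Olfml2a had the only E-box, a motif present in 6.02% of all windows. AGGTCA was in 0 of the 6 windows and in 14.0% of all windows, and the inverted pair in 0 and in 0.00609%. The TATA box, SOX core and GATA core, in 12.4%, 9.42% and 9.99% of all windows, were in 0 of the 6. These matches describe the letters of the windows only.

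Olfml3 (ENSMUSG00000027848, GRCm38 chromosome 3, 103722222 to 103738001, minus strand) had the widest difference between the genotypes among the 5 genes. It stood at 16.4, 13.6, 18.1, 16.9 and 15.7 CPM in FXR-/- libraries 8, 9, 10, 11 and 12, against 69.7, 70.2, 62.5, 67.7 and 66.3 CPM in WT libraries 3, 4, 5, 6 and 9. The highest FXR-/- library therefore lay far below the lowest WT library, and libraries within a genotype were close to each other. The means were 16.2 ± 1.67 CPM in FXR-/- and 67.3 ± 3.10 CPM in WT testis (SD, n = 5 each), a log2 fold change of -2.06 (SE 0.0707). Of 18559 genes tested, 24 had a lower log2 fold change than Olfml3, and 0 of these were among the 10983 tested genes that averaged 10 CPM or more. Because Olfml3 was chosen by this difference, its place in that order is a description only. Each library held 501 to 717 reads of Olfml3 in FXR-/- and 1994 to 2438 in WT mice, so a low read number did not limit the measurement.

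**Figure D1:**
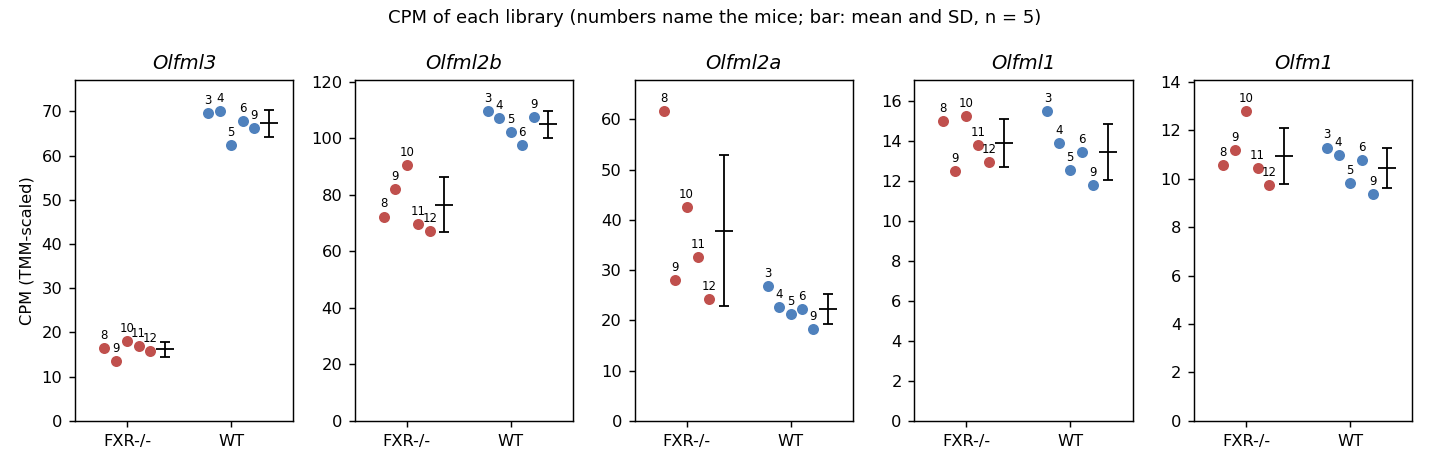
CPM (TMM-scaled) of the 5 members in each FXR-/- library (red) and each WT library (blue), with numbers naming the mice and black bars giving the mean and SD (n = 5). Olfml3 and Olfml2b separate the genotypes, Olfml2a is spread out among FXR-/- mice, and Olfml1 and Olfm1 overlap.

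Olfml2b (ENSMUSG00000038463, chromosome 1, 170644532 to 170682789, plus strand) was the most abundant member and was also lower without the receptor. FXR-/- libraries 8 to 12 had 72.3, 82.2, 90.6, 69.7 and 67.3 CPM, against 109.7, 107.3, 102.2, 97.6 and 107.5 CPM in WT libraries 3, 4, 5, 6 and 9. The groups did not overlap, with FXR-/- library 10 coming nearest to the WT range. Means were 76.4 ± 9.74 CPM in FXR-/- and 104.9 ± 4.89 CPM in WT mice (SD, n = 5 each), and the log2 fold change was -0.46 (SE 0.0766).

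Its close relative Olfml2a (ENSMUSG00000046618, chromosome 2, 38931978 to 38963753, plus strand) differed in the opposite direction. FXR-/- libraries 8 to 12 had 61.7, 28.0, 42.6, 32.6 and 24.3 CPM, against 26.9, 22.6, 21.3, 22.3 and 18.3 CPM in WT libraries 3, 4, 5, 6 and 9. Library 8 was the highest, and FXR-/- library 12 lay below WT library 3, so the groups overlapped. Means were 37.8 ± 15.002 CPM in FXR-/- and 22.3 ± 3.06 CPM in WT mice (SD, n = 5 each), with a log2 fold change of 0.76 (SE 0.218). Without FXR-/- library 8 the log2 fold change was 0.52. A processed pseudogene, Gm13473, lies within the body of Olfml2a on the same strand, and whether reads were shared with it is not known.

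Olfml1 and Olfm1 gave overlapping values in the genotypes. Olfml1 (ENSMUSG00000051041, chromosome 7, 107567446 to 107591094, plus strand) had 14.999, 12.5, 15.2, 13.8 and 12.9 CPM in FXR-/- libraries 8 to 12, against 15.5, 13.9, 12.5, 13.5 and 11.8 CPM in WT libraries 3, 4, 5, 6 and 9. Its log2 fold change was 0.05, with a 95% interval of -0.14 to 0.24. Olfm1 (ENSMUSG00000026833, chromosome 2, 28192992 to 28230736, plus strand) had 10.55, 11.2, 12.8, 10.4 and 9.74 CPM in FXR-/- libraries 8 to 12, against 11.3, 11.0, 9.81, 10.8 and 9.37 CPM in WT libraries 3, 4, 5, 6 and 9. Its log2 fold change was 0.07, with a 95% interval of -0.12 to 0.26. Neither interval holds a change as large as that of Olfml2b or Olfml2a.

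In edgeR's quasi-likelihood test across all genes, 3 of the 5 members had an adjusted p under 0.05. Olfml3 and Olfml2b were lower and Olfml2a was higher. Of all tested genes 13.9% were called, made up of 7.71% of all tested genes called lower and 6.17% called higher. The share without overlap between the genotypes was 2 of the 5 members, both lower, against 11.6% of tested genes, 6.44% lower and 5.12% higher. These counts follow from how the genes were chosen and are read no further. The call of Olfml2a was lost when any 1 of 6 libraries was left out (FXR-/- libraries 10 and 11, WT libraries 4, 5, 6 and 9), with an edgeR adjusted p of up to 0.0827. In these bulk libraries, fewer cells of a type and less RNA per cell cannot be told apart.

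The spread between mice differed among the members more than counting error would give. In Olfml2a the coefficient of variation was 39.6% among FXR-/- and 13.7% among WT libraries, where reads alone would give 2.67% and 3.67%. Olfml3 varied by 10.4% among FXR-/- and 4.60% among WT libraries, with 4.06% and 2.11% from counting. Olfml2b varied by 12.7% in FXR-/- and 4.66% in WT mice. Olfml1 and Olfm1 lay between 7.79% and 10.6%. Library 10 was the highest FXR-/- library for Olfml3, Olfml2b, Olfml1 and Olfm1, whereas library 8 was the highest for Olfml2a.

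Per kilobase of merged exons, which allows levels of different genes to be set beside each other, Olfml2b led in both genotypes, at 24.7 ± 3.15 CPM per kilobase in FXR-/- and 33.9 ± 1.58 in WT testis (SD, n = 5 each). Olfml3 had the lowest mean of the 5 in FXR-/- testis, at 2.62 ± 0.272 CPM per kilobase, and second in WT testis, at 10.9 ± 0.503. Olfml1 followed Olfml2b in FXR-/- testis, at 8.24 ± 0.718 CPM per kilobase, and held the third place in WT testis, at 7.97 ± 0.841. Olfml2a had 6.78 ± 2.69 CPM per kilobase in FXR-/- and 3.99 ± 0.549 in WT testis. Olfm1 had 3.08 ± 0.327 CPM per kilobase in FXR-/- and 2.94 ± 0.229 in WT testis. In FXR-/- testis the ranges of Olfml1 and Olfml2a overlapped, as did those of Olfm1 and Olfml3, so those neighbours in the order were not separated on this scale. In WT testis each member's range lay clear of the next. Which ranges overlapped rested on the length used. Per kilobase of the principal transcript, Olfml2a and Olfm1 overlapped in both genotypes and Olfm1 and Olfml3 were separate in FXR-/- testis, with the place of Olfml3 in the order the same.

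**Figure D2:**
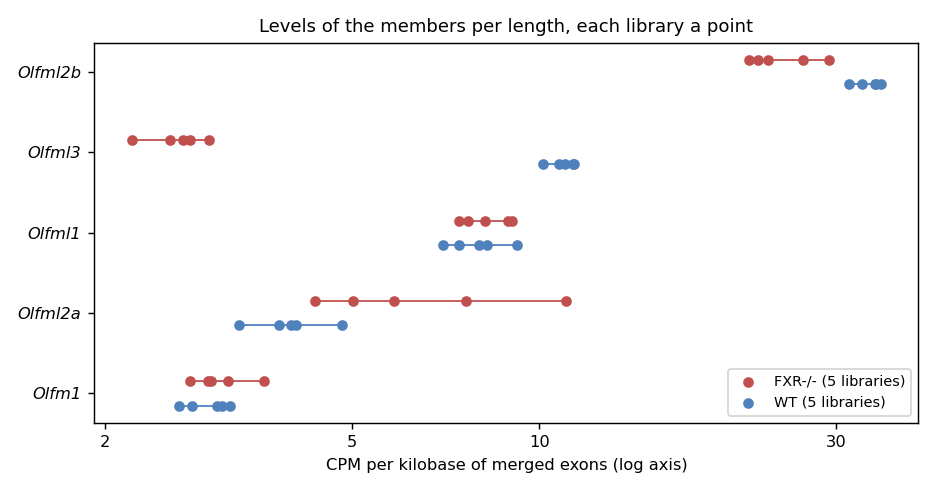
CPM per kilobase of merged exons (log axis) for the 5 members, with 1 point per library and a line over the range, FXR-/- (red) above WT (blue). Olfml3 lies between 10.1 and 11.4 in WT libraries and between 2.21 and 2.95 in FXR-/- libraries, where it overlaps Olfm1.

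The mix of the 5 transcripts therefore differed between the genotypes. Olfml3 made up 5.82 ± 0.678% of their summed CPM per kilobase in FXR-/- and 18.3 ± 0.590% in WT testis (SD, n = 5 each). Olfml2a made up 14.7 ± 4.67% in FXR-/- and 6.68 ± 0.688% in WT testis. Olfml2b made up 54.5 ± 4.45% in FXR-/- and 56.8 ± 1.87% in WT testis. The sum of the 5 was 45.4 ± 5.35 CPM per kilobase in FXR-/- testis, against 59.7 ± 2.90 in WT testis, and its ranges did not overlap. The ratio of Olfml2a to Olfml2b was 0.474, 0.189, 0.261, 0.260 and 0.200 in FXR-/- libraries 8 to 12, against 0.136, 0.117, 0.116, 0.127 and 0.0947 in WT libraries 3, 4, 5, 6 and 9. This ratio within a library needs no scaling between libraries, and every FXR-/- value lay above every WT value. As Olfml2a and Olfml2b were already seen to differ in opposite directions, the ratio is a description and no separate support.

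Outside these genes the olfactomedin family has 8 further members in the table. Of the 6 with enough reads to be tested, 1 fell and 5 did not pass, near the 13.9% called over all tested genes, with a median log2 fold change of -0.02, against 0.01 over all tested genes. Myoc, which encodes the secreted protein myocilin of the eye's drainage tissue, fell to 5.29 ± 0.948 CPM in FXR-/- testis, against 8.23 ± 1.53 CPM in WT testis (SD, n = 5 each; log2 fold change -0.64, SE 0.150, edgeR adjusted p = 0.0168). It stayed under the threshold whichever library was left out, although the groups overlapped. The latrophilins, receptors of nerve terminals with an olfactomedin domain outside the cell, are listed in the table as Lphn1, Lphn2 and Lphn3. Adgrl1 (Lphn1) was the most abundant gene of the family, at 94.1 ± 4.81 CPM per kilobase in FXR-/- and 93.7 ± 9.74 in WT testis, and its log2 fold change was 0.01 with a 95% interval of -0.14 to 0.15.

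Adgrl2 (Lphn2) averaged 129.5 ± 20.4 CPM in FXR-/- and 159.9 ± 25.9 CPM in WT testis (SD, n = 5 each; edgeR adjusted p = 0.110). Adgrl3 (Lphn3) had 7.82 ± 1.29 CPM in FXR-/- and 8.04 ± 0.953 CPM in WT testis. Olfm2, a relative of Olfm1, averaged 1.90 ± 0.301 CPM in FXR-/- and 1.38 ± 0.227 CPM in WT testis (edgeR adjusted p = 0.0697). Gldn, which encodes gliomedin of myelinated nerves, stood at 1.15 ± 0.445 CPM in FXR-/- and 1.12 ± 0.307 CPM in WT testis. Olfm3, with 5 reads in FXR-/- and 2 in WT libraries in all, and Olfm4, with 19 and 14 reads in these groups, were too low to be tested.

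**Figure D3:**
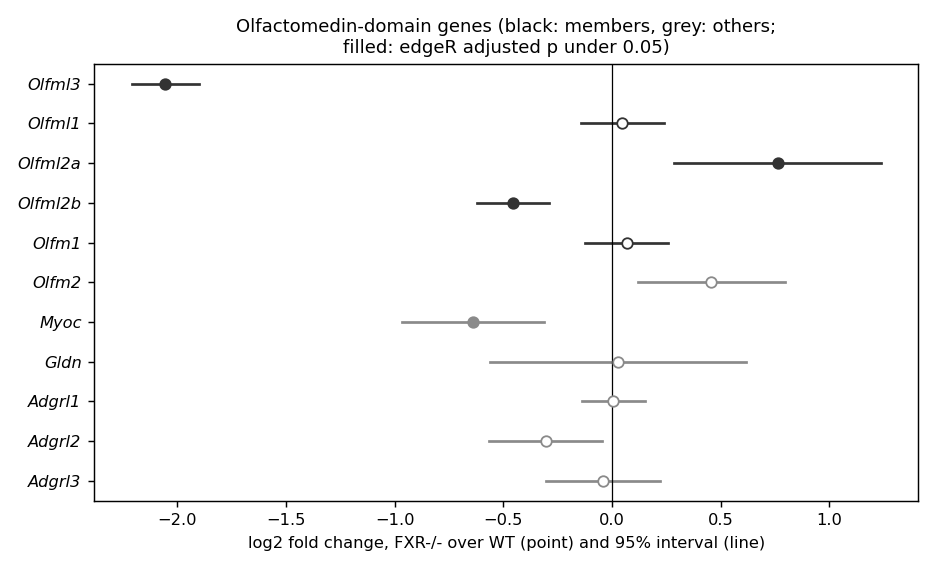
Log2 fold change, FXR-/- over WT, with 95% intervals (not adjusted for the number of genes) for the 5 members (black) and the 6 other tested olfactomedin-domain genes (grey), filled where the edgeR adjusted p was under 0.05. Olfml3 lies at -2.06, well beyond Myoc at -0.64 and Olfml2b at -0.46, and Olfml2a lies at 0.76.

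Most genes of BMP and chordin signalling, in which Olfml3 acts, did not pass the test. Of 27 such genes 26 were tested, 3 rose, 1 fell and 22 did not pass, with a median log2 fold change of 0.01. Over all tested genes 13.9% were called, so the count of 4 lay near the background. Bmpr1b, a type I BMP receptor, rose to 8.68 ± 1.86 CPM in FXR-/- testis, against 4.76 ± 0.733 CPM in WT testis (SD, n = 5 each; log2 fold change 0.87, SE 0.151, edgeR adjusted p = 0.00418), with no overlap. Bmp4, the ligand that Olfml3 binds, rose to 12.3 ± 1.54 CPM in FXR-/- testis, against 9.32 ± 1.25 CPM in WT testis (edgeR adjusted p = 0.0328). Chrd, which encodes chordin, rose to 9.36 ± 1.41 CPM in FXR-/- testis, against 6.83 ± 1.12 CPM in WT testis (edgeR adjusted p = 0.0431). Tll2, a tolloid-like protease of the kind that cuts chordin, fell to 2.43 ± 0.506 CPM in FXR-/- testis, against 3.81 ± 0.579 CPM in WT testis (edgeR adjusted p = 0.0187), a call lost without FXR-/- library 11. Bmp4 and Chrd each lost the call when any 1 of 7 libraries was left out, and the list gave 1 call without FXR-/- library 11 and 2 calls without FXR-/- library 8 or WT library 5, 6 or 9. The BMP target genes Id1, Id2, Id3 and Id4 did not pass, and Id1 stood at 21.4 ± 3.90 CPM in FXR-/- and 21.03 ± 4.30 CPM in WT testis.

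Among 26 enzymes and core proteins of glycosaminoglycans, the chains that the photomedins bind, 6 fell, 1 rose and 19 did not pass, beside 7.71% lower and 6.17% higher over all tested genes, with a median log2 fold change of -0.06. The falls were small. Xylt1, which starts the chains, fell to 16.2 ± 1.05 CPM in FXR-/- testis, against 19.96 ± 1.198 CPM in WT testis (SD, n = 5 each; edgeR adjusted p = 0.0108). Ndst1, an enzyme that modifies heparan sulfate, fell to 218 ± 19.0 CPM in FXR-/- testis, against 259 ± 12.0 CPM in WT testis (edgeR adjusted p = 0.0200). Extl3 and Ext2, which build heparan sulfate, fell 1.18-fold and 1.152-fold, and Chst11, a chondroitin sulfotransferase, and Gpc4, a glypican core protein, fell 1.24-fold and 1.25-fold (edgeR adjusted p = 0.0166, 0.0262, 0.0330 and 0.0374). Gpc3, another glypican, was the member that rose, 1.21-fold (edgeR adjusted p = 0.0439), and was named after its values were seen. With single libraries left out, the number called in this list ran from 2 to 7. It was 2 without FXR-/- library 11, 3 without FXR-/- library 12 and 4 without FXR-/- library 8 or WT library 4, 5 or 6.

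Of 12 genes linked to Olfm1, 11 were tested, 1 rose, 1 fell and 9 did not pass, near the 13.9% called over all tested genes, with a median log2 fold change of 0.02. Gria4, an AMPA receptor subunit, rose to 3.36 ± 0.563 CPM in FXR-/- testis, against 2.07 ± 0.522 CPM in WT testis (SD, n = 5 each; edgeR adjusted p = 0.0257). App, which encodes the amyloid precursor protein, fell to 428 ± 38.2 CPM in FXR-/- testis, against 521 ± 31.5 CPM in WT testis (edgeR adjusted p = 0.0130). In both genes the groups did not overlap, and Gria4 lost its call without WT library 5 or 6. The Nogo receptor gene Rtn4r stayed near 0.5 CPM, with 0.558 ± 0.0865 CPM in FXR-/- and 0.530 ± 0.121 CPM in WT testis.

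The members lie on 4 chromosomes, with Olfml2a and Olfm1 both on chromosome 2 but about 10.7 Mb apart. No other gene of the table overlaps the body of Olfml3. Within 1 Mb of it 21 genes were tested and 5 passed, with 2 higher and 3 lower, against 13.9% of all tested genes. Within 10 Mb 44 of 241 tested genes passed (18.3%), and of 840 other tested genes of chromosome 3 it was 19.5%. The nearest tested neighbour, Hipk1, which encodes a nuclear kinase and ends 1814 bases from Olfml3, had 123 ± 7.98 CPM in FXR-/- and 140.0 ± 4.90 CPM in WT testis (SD, n = 5 each; log2 fold change -0.19, SE 0.0481, edgeR adjusted p = 0.0250). Ap4b1, which encodes an adaptor protein of vesicle transport, also fell, to 25.8 ± 1.59 CPM in FXR-/- testis against 30.6 ± 1.46 CPM in WT testis (edgeR adjusted p = 0.0147).

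Bcl2l15, a gene of the Bcl2 family 94600 bases from Olfml3, rose to 0.718 ± 0.206 CPM in FXR-/- testis, against 0.151 ± 0.0648 CPM in WT testis (SD, n = 5 each; edgeR adjusted p = 0.000894), and was the only tested gene of this neighbourhood past 2-fold. Phtf1os, a transcript antisense to Phtf1, rose to 3.97 ± 0.147 CPM in FXR-/- testis against 2.92 ± 0.323 CPM in WT testis (edgeR adjusted p = 0.0137), but its value is uncertain because the use of strand is not given. Nr1h5, which encodes FXRβ, the close relative of the deleted receptor in mice, lies 758089 bases from Olfml3 and fell to 1.05 ± 0.315 CPM in FXR-/- testis, against 1.93 ± 0.474 CPM in WT testis (log2 fold change -0.87, SE 0.222, edgeR adjusted p = 0.0247). The Nr1h5 groups overlapped, and its call was lost without FXR-/- library 9 or WT library 4 or 9. The call of Hipk1 was lost without any 1 of 4 libraries (FXR-/- libraries 11 and 12, WT libraries 4 and 5), and without WT library 4 the neighbourhood gave 3 calls. None of these neighbours fell by as much as Olfml3. On its other flank the nearest tested gene, Syt6, lay 76653 bases away and did not pass, although its mean was lower in FXR-/- testis. Syt6 had 0.246 ± 0.104 CPM in FXR-/- and 0.446 ± 0.0741 CPM in WT testis (log2 fold change -0.83, SE 0.286, edgeR adjusted p = 0.0723), with overlap.

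**Figure D4:**
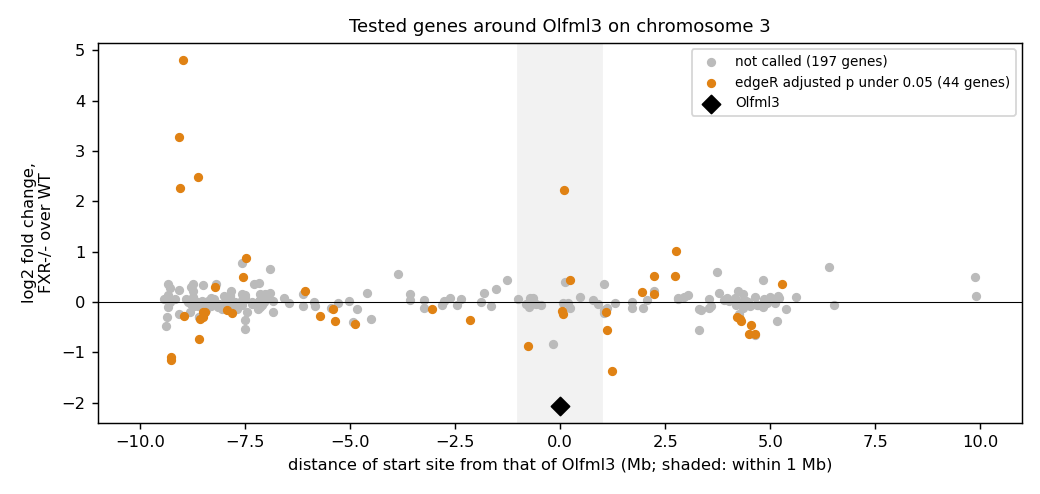
Log2 fold change, FXR-/- over WT, of the 241 tested genes within 10 Mb of Olfml3 (circles, orange where the edgeR adjusted p was under 0.05) against the distance between start sites in Mb, with Olfml3 as a black diamond at 0. Olfml3 at -2.06 is the lowest point in the window, and the shaded 1 Mb on each side holds 5 called neighbours.

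Around the other members the share of called genes within 1 Mb was 1 of 7 for Olfml1, 3 of 16 for Olfml2a, 5 of 41 for Olfml2b and 2 of 31 for Olfm1. The shares over the other genes of their chromosomes were 14.1%, 13.4%, 12.0% and 13.5% for these members.

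Among 13799 other named genes that averaged 1 CPM or more, the 5 with the profile over the 10 libraries nearest to that of Olfml3 included Lair1, Shisa7, Mme and Zfp872. Likeness was measured as the root-mean-square difference between log2 CPM profiles centred on each gene's mean, which was 0.228 for Lair1, 0.271 for Shisa7, 0.302 for Mme and 0.316 for Zfp872, against a median of 1.04 over all these genes. Lair1, an inhibitory receptor gene of immune cells, had 1.23 ± 0.203 CPM in FXR-/- and 4.84 ± 0.404 CPM in WT testis (SD, n = 5 each). Shisa7 had 0.879 ± 0.0572 CPM in FXR-/- and 4.69 ± 1.34 CPM in WT testis, and Zfp872, a zinc finger gene, 2.53 ± 0.325 CPM in FXR-/- and 7.33 ± 0.707 CPM in WT testis. Mme, a membrane peptidase gene, lies on chromosome 3 as well (63241537 to 63386030) and had 68.7 ± 5.45 CPM in FXR-/- and 193 ± 20.1 CPM in WT testis. Lair1 (4003402 to 4063204) and Shisa7 (4825552 to 4844696) lie near each other on chromosome 7, and Zfp872 lies on chromosome 9. Olfml2b was at 0.811, in place 214. When each genotype was centred on its own mean, 0 of the 5 nearest genes were among the 5 nearest again. Likeness over the 10 libraries thus mostly reflects the genotype difference by which Olfml3 was chosen, and it is a description only.

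**Figure D5:**
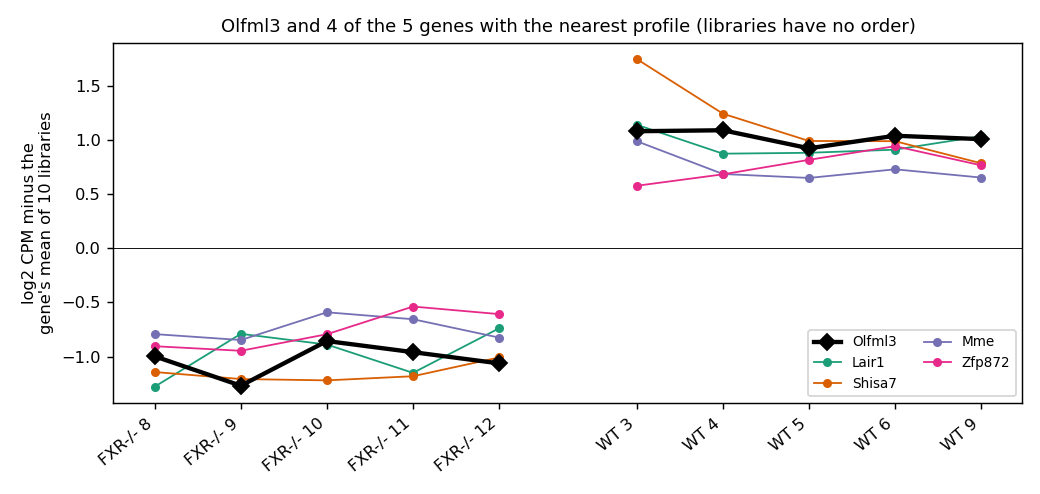
Log2 CPM of Olfml3 (black) and 4 of the 5 genes with the nearest profile (coloured), each minus its own mean over 10 libraries, with FXR-/- libraries to the left of WT libraries. All 5 genes lie below 0 in every FXR-/- library and above 0 in every WT library, a split that follows from picking genes by likeness to Olfml3.

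Markers of several cell types differed between the same libraries, beside the 7.71% of all tested genes that were called lower and the 6.17% called higher. Of 12 Sertoli cell markers 8 fell and 1 rose, and their summed level was 3582 to 5141 CPM in FXR-/- and 5169 to 6235 CPM in WT libraries. Of 8 adipocyte markers 7 rose, with sums of 198 to 1230 CPM in FXR-/- and 47.7 to 191 CPM in WT libraries. Of 8 duct epithelium markers 7 rose, with sums of 125 to 182 CPM in FXR-/- and 76.5 to 97.6 CPM in WT libraries. No marker of these lists was at 0 in all libraries, and their part in the differences of Olfml3, Olfml2b and Olfml2a was not tested.

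Pericyte and macrophage markers are given because Olfml3 is best known from pericytes and microglia. The counts below stand beside 6.17% of all tested genes called higher and 7.71% called lower. Those of pericyte and macrophage markers lay near the 13.9% called in either direction. Of 8 pericyte markers 1 rose and 0 fell, with sums of 218 to 301 CPM in FXR-/- and 179 to 229 CPM in WT libraries. Of 12 macrophage and microglia markers 2 rose and 0 fell, with sums of 132 to 169 CPM in FXR-/- and 138 to 157 CPM in WT libraries. Their part in the difference of Olfml3 was not tested. Beside Olfml2a, the summed level of 8 interstitial fibroblast markers was 7112, 6187, 7435, 5585 and 4974 CPM in FXR-/- libraries 8 to 12. It was 5691 to 7465 CPM in WT libraries, and collagen genes made up most of these sums. Of these fibroblast markers 2 rose and 0 fell. The sum of 7 peritubular myoid markers was 1433, 1101, 1215, 1234 and 1198 CPM in FXR-/- libraries 8 to 12. It was 1138 to 1351 CPM in WT libraries, and of these myoid markers 0 rose and 1 fell. Beside Olfm1, 2 of 7 neuron and glia markers fell and 0 rose, with sums of 130 to 179 CPM in FXR-/- and 196 to 237 CPM in WT libraries. Whether these cells account for the values of the members was not tested. Without FXR-/- libraries 9 and 10, which held the most adipocyte RNA, the log2 fold change was -2.04 for Olfml3, -0.59 for Olfml2b and 0.82 for Olfml2a. These libraries were picked after the data were seen, and Olfml2a lost its call without them. The kept FXR-/- libraries 8, 11 and 12 still had adipocyte marker sums of 198, 349 and 233 CPM, against 47.7 to 191 CPM in WT libraries. The part of adipocytes in these values was therefore not tested.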

How the data were processed

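Raw counts per Ensembl gene, as deposited by the authors, were used for 10 testis libraries. Per the submitters' processing notes, FastQC 0.10.1, CASAVA, Bowtie, TopHat2 2.0.10, Bowtie2 2.1.0 and the build mm10 were named without role. Per the labels' protocols, total RNA was extracted with Trizol and prepared with a TruSeq RNA kit. For the read counter, the annotation release and the use of strand, the sources used here give no name. The authors' normalized columns had lost their decimal marks and were not used. Positions and exon lengths came from GENCODE M21 (GRCm38), matched by identifier for 30212 of 30719 genes. The other 507 held 0.200% of all counts.

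After filterByExpr, 18559 genes were left. They were scaled by TMM and compared with the quasi-likelihood F-test of edgeR 4.0.16 in R 4.3.3. Genotype was the only term, tests were two-sided, and p-values were adjusted by Benjamini-Hochberg over these genes. Called means an adjusted p under 0.05. Fold changes are FXR-/- over WT. Log2 CPM used a prior count of 2. The members and gene lists were chosen with earlier results of these data known. Named genes were the members, other olfactomedin-domain genes with at least 0.1 CPM, up to 6 called genes per list or neighbourhood (smallest p) and the 5 nearest profiles, of which 1 is not reported here. Id1, Rtn4r, Syt6, Wnt2b, Gpc3 and Chrdl1 were named outside this rule, after their values were seen. Alternatives were DESeq2 1.42.0, other scalings, no filter and leaving out each library. The edgeR step was tested on simulated counts. The labels do not state litters, so p-values measure the spread between these mice.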

Additional observations from a re-analysis of the deposited data

Results flagged for a closer look

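In 70 groups of 5 libraries (35 named genes in 2 genotypes), 3 held a library far from the other 4 in CPM, where chance alone gives about 1 in 20. Mme had 228 CPM in WT library 3, with 180.1 to 190.4 CPM in the other WT libraries. Xylt1 had 18.0 CPM in FXR-/- library 10, with 15.4 to 15.96 CPM in the other FXR-/- libraries. Gpc4 had 66.5 CPM in FXR-/- library 10, with 56.7 to 59.2 CPM in the other FXR-/- libraries. None of the 5 olfactomedin-like genes had such a library, FXR-/- library 8 in Olfml2a included.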

How the results depend on the processing

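With single libraries left out, the log2 fold changes of Olfml3, Olfml2b, Olfml1 and Olfm1, given as a description, ran from -2.10 to -2.002, from -0.53 to -0.41, from 0.003 to 0.10 and from 0.003 to 0.11. That of Olfml2a ran from 0.52 to 0.89, and its call was lost without any 1 of 6 libraries and without FXR-/- libraries 9 and 10 together (0.82, edgeR adjusted p = 0.0567), which leaves fewer samples and was chosen after seeing the data. Over 35 genes and 560 pairs of gene and alternative, 490 kept their side, 64 lost a call, 6 gained 1 and 0 called changes turned round, and 20 genes kept their side throughout. With single libraries left out, the number of called genes ran from 1427 (without FXR-/- library 11) to 2867, against 2576 with all libraries, and was 1635 without FXR-/- library 12 and 1601 without WT library 4. It ran from 3 (without WT library 4) to 5 within 1 Mb of Olfml3, from 1 to 5 among BMP and chordin genes, from 1 to 3 among genes linked to Olfm1 and from 2 to 7 among glycosaminoglycan genes, against 5, 4, 2 and 7. Myoc remained the 1 called gene of the other family members. Without FXR-/- libraries 9 and 10 the genes linked to Olfm1 gave 1 call. The rank of Olfml3 per length was the same under each length and scaling tried, and 0 of the 5 nearest profiles were shared when genotypes were centred separately. Of called genes 44.5% were higher with TMM factors, 53.0% with upper-quartile factors and 61.5% with library totals alone. No paired analysis was possible because the labels name no pairing of mice. Library number 9 occurs in both genotypes, but the labels do not link these animals.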

Other observations

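Within 10 Mb of Olfml3, 9 of 241 other tested genes differed at least 2-fold, of which 6 were higher and 3 lower in FXR-/- testis, all called by edgeR. Wnt2b, a secreted WNT ligand whose start lies 1.22 Mb from that of Olfml3, had 5.43 ± 0.344 CPM in FXR-/- and 14.0 ± 0.787 CPM in WT testis (SD, n = 5 each), with no overlap. Of all tested genes 2.44% differed at least 2-fold, against 4.52% of those on chromosome 3 (Olfml3 and 37 of the 840 other tested genes). These shares are totals, and the spread of such genes along the chromosome was not tested. Most of the genes past 2-fold within 10 Mb had start sites at -9.26 to -8.61 Mb from that of Olfml3. Within 1 Mb there was 1. Wnt2b was named after its values were seen, as was Chrdl1. Chrdl1, a chordin-like BMP antagonist, had 32.0 to 68.1 CPM in FXR-/- and 28.2 to 30.4 CPM in WT libraries, with no overlap, but an edgeR adjusted p of 0.0516. It passed under 6 of 16 alternatives, among them DESeq2 and the scalings by upper quartile and by library totals, and failed when any 1 of 8 libraries was left out.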
